A study of Mus musculus with 8 samples.

Results

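Partial sciatic nerve ligation (PSNL), in which part of the mouse sciatic nerve is tied off tightly, is a lasting injury, and the myeloid cells of the nerve were compared here between 15 weeks and 1 week after it. The cells were kept by fixed rules: at least 500 genes, under 10% mitochondrial unique molecular identifiers (UMIs) and exactly 1 positive hashtag antibody, which assigns a cell to its sample. They numbered 3061 of the 6551 kept cells of the series, in 6 of its 13 hashtag samples. At 1 week a female sample (F) held 532 cells and a male sample (M) held 874. At 15 weeks the female samples F1 and F2 held 288 and 484 cells and the male samples M1 and M2 held 521 and 362.

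All groups were male and female C57BL/6JolaHsd mice, bought at 7 weeks of age, with no transgene, and live cells positive for CD45 and CD11b were sorted from the nerve at the injury site. Cells positive for Ly6G, a neutrophil surface protein, were excluded from the sort at 1 week but not at 15 weeks. Sciatic nerve crush, an injury that allows the nerve to regenerate, was read at the same times (2 samples at 1 week, 3 at 15 weeks) and is given beside PSNL, since it shares no sample with it. The sham sample of the 1 week PSNL library was left out of the comparison. Whether a hashtag sample is 1 mouse or a pool of mice is not given in the sources used here, so p-values measure the spread between hashtag samples. Time coincided with the library, with the sort and with the Cell Ranger version named in the matrix headers (6.0.0 at 1 week, 7.0.0 at 15 weeks). It also coincided with the gene list (31053 genes at 1 week, 32285 at 15 weeks). These cannot be told apart from time within PSNL. No sham sample was read at 15 weeks, so the age of the mice cannot be told apart from time after injury.

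As background, an injured nerve is entered by neutrophils and monocytes, drawn by chemokines such as the CXCR2 ligands of the Cxcl1 family, and the monocytes turn into macrophages that clear myelin. Macrophages in a damaged, poorly perfused tissue often use glycolysis and make Arg1, Spp1 and Vegfa. Resident macrophages of healthy nerve express Mrc1, Cd163 and Lyve1, and those within the nerve fascicle share genes with microglia.

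The 6 samples held 2356302 to 5039696 UMIs, with medians of 6358 to 7110 UMIs per cell at 15 weeks and 3622 and 4920.5 at 1 week. Of the cells of the PSNL libraries that passed the first filters, 621 of 2100 carried more than 1 tag at 1 week and 101 of 1769 did at 15 weeks, and these were left out. The 2 libraries shared 3 cell barcodes, of which 2 were kept. Macrophage markers fitted the sort: their summed level, unlike the levels below without TMM scaling, was 10592 and 10927 counts scaled to a common library total (CPM, the usual unit) at 1 week and 12314 to 20418 at 15 weeks. The 16 neutrophil markers summed to 15255 plain CPM (F) and 5603 plain CPM (M) at 1 week and 233 to 277 plain CPM at 15 weeks, where Lcn2, Ngp and Ly6g were at 0. At least 3 of these markers were found in 40.2% and 31.4% of the 1 week cells, although Ly6G-positive cells had been sorted out, against 0.826 to 1.93% at 15 weeks and 3.61 and 6.1% in crush at 1 week. Gm42418, a transcript that overlaps ribosomal RNA, took 12.1% and 9.71% of the UMIs at 1 week and 1.33 to 2.36% at 15 weeks. Fewer cells of a type and less RNA per cell cannot be told apart in the summed counts used below.

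Counts were summed per sample and tested across 11105 genes with edgeR's quasi-likelihood test, with p-values adjusted over all of them (Benjamini and Hochberg, threshold 0.05). Levels are CPM scaled by TMM unless named plain, and log2 changes are 15 weeks minus 1 week with their standard error (SE). At 15 weeks 3364 genes (30.3%) were lower and 3551 (32.0%) were higher, so that a single call says little by itself. An exact permutation test of 4 samples against 2 cannot go below p = 0.0667, and the calls rest on the spread that the fit shares across genes.

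The direction of change followed intronic length, the gene's span less its exons. Among 1498 genes with at most 3000 intronic bases, called short-intron genes below, 758 were lower (50.6%) and 151 were higher (10.1%), with a median log2 change of -0.56. Among 4172 genes with over 30000 intronic bases, 542 were lower and 2402 were higher (57.6%), with a median of 0.78. Crush showed nearly the same slope, with medians of -0.37 in short-intron genes and 0.63 in the longest class. Across genes, which are not independent replicates, Spearman's rho between intronic length and log2 change was 0.472 for PSNL, 0.464 for crush and 0.14 for the difference between them. Short-intron genes were therefore also normalized and tested among themselves, a scale on which their median is near 0. On that scale 354 of the 758 falls kept their call and 78 turned in sign, while all 151 rises kept theirs. A fall named below as held passed on both scales. On the short-intron scale 354 of 1500 genes were lower and 346 higher. Each count of list members below is to be read beside these background shares: 30.3% lower and 32.0% higher over all genes, and 50.6% and 10.1% over short-intron genes.

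**Figure D1:**
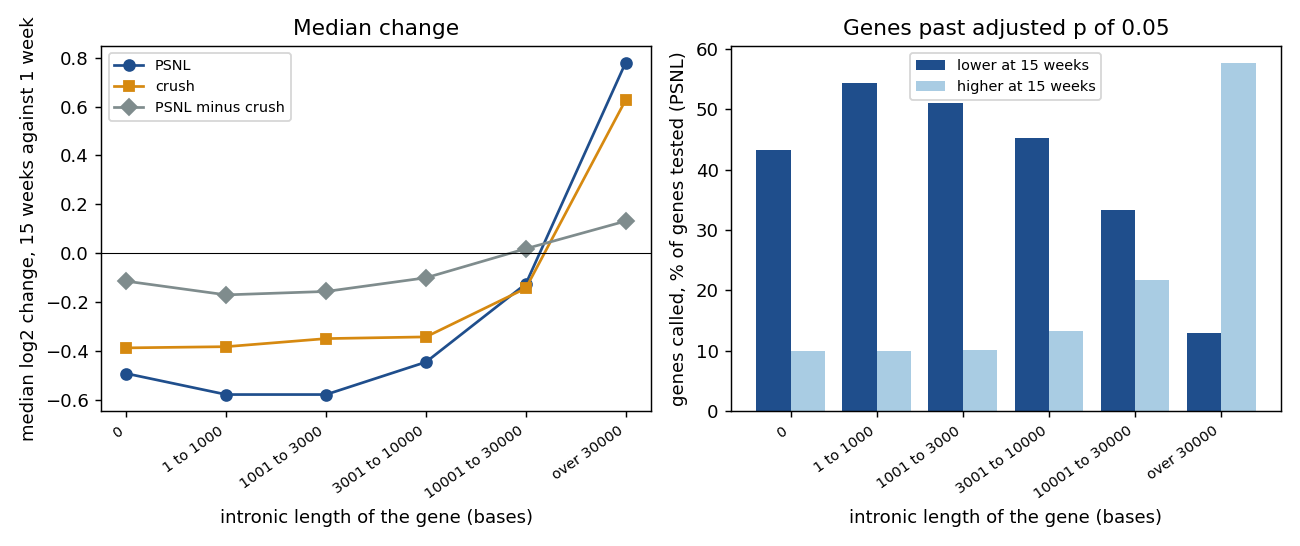
Left, median log2 change between 15 weeks and 1 week by intronic length of the gene in bases, for PSNL (circles), crush (squares) and their difference (diamonds). Right, share of PSNL genes tested that passed the adjusted p of 0.05 in each direction: the median rises from -0.49 in genes with no intronic bases to 0.78 in genes with over 30000 intronic bases, and crush follows it.

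Chemokines that attract neutrophils were among the 15 largest falls of short-intron genes. Cxcl1, Cxcl2 and Cxcl3 are neighbouring genes on chromosome 5 that encode ligands of CXCR2, and each counts as having no intronic bases in the merged annotation. Their promoter windows from RefSeq (GRCm38.p6, 250 bases before to 50 after the start, plus strand) are shown because the 3 genes fell together. The capitals mark the longest run that the 3 windows share before the start, 11 letters, and they share another run after the start. The run, GGGAATTTCCC, holds the consensus of kappa B sites.
Cxcl1, chr5:90890995-90891294: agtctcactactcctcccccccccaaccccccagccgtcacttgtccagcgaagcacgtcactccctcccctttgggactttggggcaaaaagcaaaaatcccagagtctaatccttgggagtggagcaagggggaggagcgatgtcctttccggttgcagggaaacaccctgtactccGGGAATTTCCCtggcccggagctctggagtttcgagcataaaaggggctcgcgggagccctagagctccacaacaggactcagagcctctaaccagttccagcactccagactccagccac
Cxcl2, chr5:90903649-90903948: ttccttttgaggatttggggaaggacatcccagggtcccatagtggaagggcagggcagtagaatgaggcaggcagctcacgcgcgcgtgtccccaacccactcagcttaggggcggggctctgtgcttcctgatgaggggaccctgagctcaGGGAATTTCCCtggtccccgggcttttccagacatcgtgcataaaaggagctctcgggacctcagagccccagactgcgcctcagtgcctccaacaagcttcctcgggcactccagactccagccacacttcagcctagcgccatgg
Cxcl3, chr5:90785851-90786150: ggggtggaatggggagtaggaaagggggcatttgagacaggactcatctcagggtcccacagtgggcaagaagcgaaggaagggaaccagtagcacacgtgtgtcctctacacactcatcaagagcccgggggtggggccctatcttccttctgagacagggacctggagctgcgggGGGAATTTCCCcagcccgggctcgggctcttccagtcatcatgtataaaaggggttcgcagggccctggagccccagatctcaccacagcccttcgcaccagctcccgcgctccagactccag
The run starts 71, 97 and 73 bases before the 3 starts. It was found in 14 of 32851 promoter windows (0.0426%), and these 3 are among them because the run was taken from them. The looser kappa B consensus, searched on both strands and chosen after seeing the data, was in 4.01% of all windows. It was in 4 of 14 windows of chemokine genes (28.6%). The same 3 windows are among those 4, since the run itself matches the looser consensus, so the 2 shares are not a test of enrichment. A match is a description of the sequence and not a measured binding site.

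Cxcl2 (ENSMUSG00000058427, chr5:90903871-90905938) stood at 5514 and 5998 CPM in the 1 week samples F and M. At 15 weeks it was at 115, 10.5, 75.9 and 70.2 CPM in F1, F2, M1 and M2, with F2 the lowest. The change was -6.42 (SE 0.629, adjusted p = 2.28e-05) and held. Cxcl1 (ENSMUSG00000029380, chr5:90891241-90893115) was at 156 and 217 CPM at 1 week and at 0.758, 0, 3.5 and 0 CPM at 15 weeks. Its change was -7.21 (SE 0.517, adjusted p = 3.62e-06) and it also held. Cxcl3 (ENSMUSG00000029379, chr5:90786103-90789600) was at 444 and 762 CPM at 1 week and at most 1.57 CPM at 15 weeks. The groups did not overlap for any of the 3 genes. In cells with under 3 neutrophil markers, Cxcl1 was at 135 and 126 plain CPM at 1 week and Cxcl2 at 1991 and 3225, so that both were high there too.

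Among 19 CC and CXC chemokine ligands tested, 15 were lower at 15 weeks and 2 were higher, with a median log2 change of -1.76 against 0.03 for all genes. Of the 14 short-intron members, 11 were lower on the all-gene scale, against 50.6% of all short-intron genes. On the short-intron scale 7 were lower, against 354 of 1500. Ccl2, which draws monocytes through CCR2, was at 221 and 484 CPM at 1 week and 24.9 to 79.3 at 15 weeks (change -3.07 on the log2 scale, adjusted p = 0.000154, held). Ccl9, a CCR1 ligand, went from 936 and 1520 CPM to 102 to 189 (adjusted p = 8.1e-06, held), and Ccl6, a ligand of the same receptor, from 1552 and 1722 to 350 to 513 CPM. Ccl8, a CCR8 ligand in the mouse, went the other way, from 18.3 and 18.6 CPM to 57.7 to 161 (change 2.49, adjusted p = 0.00044). Pf4, the platelet factor that macrophages also make, was at 1272 and 1910 CPM at 1 week and 669 to 1007 at 15 weeks. Its call was lost on the short-intron scale (adjusted p = 0.131).

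**Figure D2:**
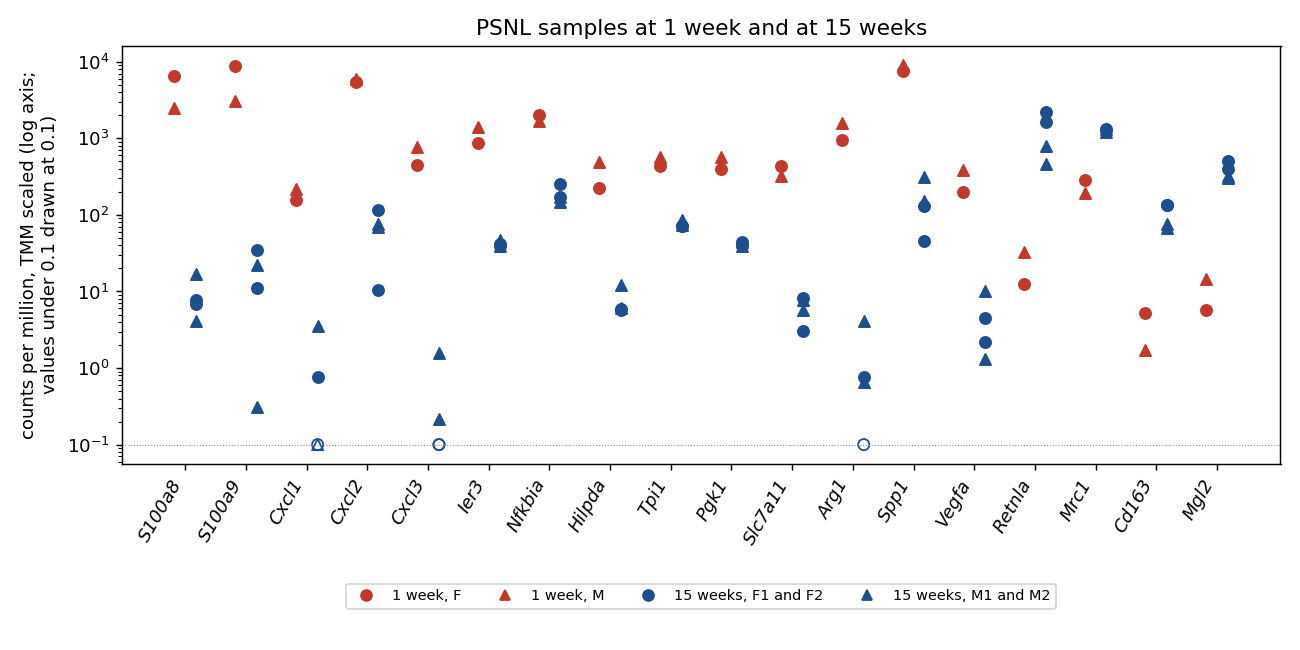
Levels of 18 named genes in the PSNL samples, in CPM on a log axis, with values under 0.1 drawn as open symbols at 0.1. Red marks 1 week and blue 15 weeks, circles are female and triangles male samples. The first 14 genes are lower in every sample at 15 weeks and the last 4, Retnla, Mrc1, Cd163 and Mgl2, are higher in every one.

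Genes of neutrophils were also among the steepest falls. S100a8 and S100a9 encode the subunits of calprotectin. S100a8 was at 6567 and 2504 CPM at 1 week and at 6.83, 7.82, 17.1 and 4.08 CPM at 15 weeks (change -8.92, SE 0.518, adjusted p = 1.17e-06), and S100a9 at 8929 and 3076 against 0.314 to 35.2 CPM. Lcn2, the iron-chelator binding lipocalin, was at 112 and 30.2 CPM at 1 week and at 0 in the 15 week samples, at least 207-fold higher at 1 week with the floor at 3 counts over the group. Stfa2l1, a stefin, and Gm5483 were at 0 in the same way, at least 526-fold and 625-fold higher at 1 week. These genes move with the neutrophil markers given above, among which S100a8, S100a9 and Lcn2 are counted. In cells with under 3 of the markers, S100a8 was at 31.4 and 46.7 plain CPM at 1 week and S100a9 at 25.1 and 28.5. Csf3r, the receptor for granulocyte colony-stimulating factor, turned: it was at 268 and 75.8 CPM at 1 week and 69.9 to 78.5 at 15 weeks (change -1.16, adjusted p = 0.02), and its change was 1.95 (adjusted p = 0.000106) without the marked cells. Without PSNL 1 week F its change was -0.01 (adjusted p = 0.952), and with DESeq2 its adjusted p was 0.0519. Leaving out the marked cells took Csf3r from 223 and 60.7 to 24.5 and 10.3 plain CPM at 1 week. Its turn therefore depends on how cells were marked.

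The wider S100 and annexin list fell as well, with 12 of 13 tested members lower and none higher (median -2.44), and 12 were lower without the marked cells. S100a4, a calcium-binding protein of motile cells, went from 2207 and 3482 CPM to 296 to 384 (change -3.07, SE 0.188, held). S100a11, its relative, went from 1893 and 1955 CPM to 152 to 224, and Anxa2, a membrane-binding annexin, from 1369 and 1950 to 165 to 232.

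Inflammatory cytokines and their regulators were lower at 15 weeks. Of 16 tested, 15 were lower, none was higher, and the median was -3.03, and 4 of 5 short-intron members held. Without the marked cells 13 were lower. Ier3, an immediate response gene of NF-kappa B signalling (chr17:35821684-35822923, 109 intronic bases), was at 858 and 1412 CPM at 1 week and at 42.1, 39.3, 47.3 and 39.5 CPM at 15 weeks. The 4 late samples lay close together and the change was -4.75 (SE 0.196, adjusted p = 2.65e-07). Nfkbia, which encodes the inhibitor I kappa B alpha, was at 2004 and 1709 CPM at 1 week and at 173, 253, 170 and 147 at 15 weeks (change -3.32, SE 0.201, held). Cd14, the co-receptor for lipopolysaccharide, was at 1118 and 1130 CPM and then at 173, 190, 169 and 137 (change -2.75, SE 0.141, adjusted p = 5.94e-07, held). Il1b went from 2001 and 1398 CPM to 50.4, 122, 63.5 and 82.5 CPM, a change of -4.41, or -2.97 without the marked cells, and Il1rn, which encodes its receptor antagonist, from 703 and 800 CPM to 1.75 to 26.2. Cebpb, a transcription factor of myeloid cells, and Clec4e, a receptor for dead cells, were 14.2-fold and 88.2-fold lower. Osm, the cytokine oncostatin M, went from 133 and 171 CPM to 4.4 to 12.5. Tnf moved least: 92.2 and 116 CPM against 35.2 to 55.4, with a change of -1.14 (adjusted p = 0.000598). Its adjusted p was 0.0569 on the short-intron scale and 0.646 there without the marked cells, where its change was 0.16.

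Genes of glycolysis and of the response to low oxygen fell together. Of 21 tested, 20 were lower and none higher, with a median of -2.71, and all 4 short-intron members held. Without the marked cells 19 were lower. Tpi1, triosephosphate isomerase (958 intronic bases), was at 431 and 564 CPM at 1 week and at 71.7, 72, 74.2 and 86.8 CPM at 15 weeks, a change of -2.71 (SE 0.14, adjusted p = 6.15e-07). Pgk1, phosphoglycerate kinase, was at 403 and 579 CPM and then at 44, 40.3, 39.2 and 44.8 CPM (change -3.55, SE 0.153). Hilpda, a lipid droplet protein induced by low oxygen, was at 223 and 488 CPM and then at 5.69, 5.86, 6.13 and 12.2 CPM (change -5.59, SE 0.344, held). Slc16a3, the lactate exporter MCT4, was 30.0-fold lower, and Bnip3, a mitophagy receptor, 6.7-fold lower, at 110 and 109 CPM against 14 to 19.3. Vegfa, the vascular growth factor, went from 197 and 384 CPM to 4.55, 2.2, 1.31 and 10 CPM. Gapdh, often used as a constant gene, was 4.23-fold lower and held. The list's promoters are shown for 3 of its members, with the hypoxia response core ACGTG in capitals on either strand.
Pgk1, chrX:106186850-106187149, plus strand: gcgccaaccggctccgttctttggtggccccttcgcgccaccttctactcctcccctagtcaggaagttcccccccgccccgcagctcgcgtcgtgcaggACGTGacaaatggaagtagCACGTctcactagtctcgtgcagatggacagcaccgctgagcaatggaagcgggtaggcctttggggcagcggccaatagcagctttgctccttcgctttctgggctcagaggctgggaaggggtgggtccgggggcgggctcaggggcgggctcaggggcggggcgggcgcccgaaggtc
Slc16a3, chr11:120948817-120949116, plus strand: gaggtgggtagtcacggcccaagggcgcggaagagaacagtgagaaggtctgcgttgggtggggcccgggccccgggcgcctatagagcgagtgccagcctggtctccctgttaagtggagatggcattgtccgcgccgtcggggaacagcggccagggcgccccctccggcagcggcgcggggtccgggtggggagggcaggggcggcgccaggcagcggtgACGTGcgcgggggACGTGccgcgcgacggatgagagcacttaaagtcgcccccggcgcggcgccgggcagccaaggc
Bnip3, chr7:138909457-138909756, minus strand: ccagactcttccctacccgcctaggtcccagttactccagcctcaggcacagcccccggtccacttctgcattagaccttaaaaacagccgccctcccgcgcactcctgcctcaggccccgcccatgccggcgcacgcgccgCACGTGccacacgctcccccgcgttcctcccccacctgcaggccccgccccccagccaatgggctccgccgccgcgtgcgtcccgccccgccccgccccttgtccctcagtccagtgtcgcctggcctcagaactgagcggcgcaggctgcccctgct
In Bnip3 the matches on both strands overlap in CACGTG, which is also an E-box. ACGTG was in 16 of 29 windows of the list (55.2%, 20 of 22 genes matched), in 41.2% of those of the inflammatory list and in 19.6% of all promoter windows. The AP-1 pattern TGANTCA was in none of the 14 windows of the 15 largest short-intron falls (13 matched) and in 7.81% of all windows.

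Genes against oxidative stress and of iron handling were lower in 14 of 19 cases and higher in 2 (median -1.84). Slc7a11, the cystine importer that supplies glutathione, was at 440 and 325 CPM at 1 week and at 3.03, 8.3, 5.69 and 7.84 CPM at 15 weeks, 59.5-fold lower (adjusted p = 2.6e-07). Prdx6, a peroxiredoxin, was 8.32-fold lower, Txn1, thioredoxin, 8.19-fold, and Hmox1, which degrades haem, 5.2-fold. Prdx5, with 1271 intronic bases, went from 668 and 847 CPM to 172 to 194 (change -2.04, SE 0.129, held). Fth1, the ferritin heavy chain, was at 13844 and 18053 CPM and then at 4730 to 8901 (change -1.30, adjusted p = 0.000726). Its adjusted p was 0.0158 on the short-intron scale and 0.0677 there without the marked cells. Gpx3, a secreted glutathione peroxidase, rose from 11.6 and 2.48 CPM to 92.8 to 123. The metallothioneins did not pass: Mt1 was at 267 and 311 CPM against 300.0 to 390 and Mt2 at 21.7 and 28.7 against 15.9 to 26.9. Mt1 was higher on the short-intron scale (change 0.78, adjusted p = 0.00122). The metal response pattern TGCNCNC was in both of their promoter windows and in 51% of all windows.

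Many genes of injury macrophages and of matrix turnover were lower. On the all-gene scale 11 of 16 Arg1 and Spp1 macrophage genes and 11 of 15 matrix and protease genes were lower and none higher, against 30.3% lower over all genes. Most of them have longer introns. Of the 3 short-intron members of the first list, 0 were lower and 1 was higher on the short-intron scale. The 1 short-intron member of the second list lost its call there. Arg1, arginase, was at 949 and 1583 CPM at 1 week and at 0.758, 0, 0.657 and 4.08 CPM at 15 weeks (change -9.94, SE 0.518, adjusted p = 6.42e-07). Spp1, which encodes osteopontin, was at 7478 and 9107 CPM and then at 129, 45.4, 150 and 317 CPM (change -5.70, SE 0.562, adjusted p = 2.39e-05), and M2 was the highest of the late samples. M2 was also the highest for Lgals3, galectin 3, at 1664 CPM against 570 to 924 in the other 3 and 3667 and 5738 at 1 week. Fabp5, a fatty acid binding protein, was at 1719 and 1751 CPM and then at 366, 112, 494 and 1008 (change -1.81, SE 0.582, adjusted p = 0.0216), and its call was lost on the short-intron scale (adjusted p = 0.13), with DESeq2 (0.0633) and without 15 weeks F1 (0.0525), 1 week F (0.0714) or 1 week M (0.0826). Itgax, the integrin CD11c, went from 54 and 98.6 to 12.5 to 40.4 CPM (adjusted p = 0.00787, and 0.159 without PSNL 1 week M). Atf3, a stress transcription factor, was lower by less, 508 and 595 CPM against 224 to 290 (change -1.04, adjusted p = 0.000153). Adam8, a metalloprotease, was 15.4-fold lower, Ctsl, the protease cathepsin L, 15.8-fold, and Thbs1, thrombospondin 1, 175-fold, from 895 and 1079 CPM to 13.3, 3.42, 3.28 and 4.39 CPM.

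Recruited monocyte genes had a median of -4.67, with 12 of 14 lower and none higher. Ly6c2, the marker of classical monocytes, was at 213 and 246 CPM and then at 12.5, 3.17, 1.53 and 0 CPM (change -5.92, SE 0.562, held). Vcan, versican, a matrix proteoglycan, was 107-fold lower. Interferon-stimulated genes were lower in 14 of 17 cases. Ifitm1, an interferon-induced gene with 1511 intronic bases that is not on that list, went from 1200.0 and 877 CPM to 0.379, 2.44, 1.09 and 0.941 CPM (change -9.60, SE 0.296, adjusted p = 1.6e-07). Ifitm3, which blocks virus entry, went from 2402 and 2595 to 263 to 553 CPM, and Isg15, the ubiquitin-like modifier, from 300.0 and 511 CPM to 7.52 to 54.6 CPM. Both held.

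Groups that every cell uses gave mixed counts. All 33 nuclear genes of oxidative phosphorylation were lower (median -1.14), with 11 of 15 short-intron members lower on their own scale, such as Uqcrq, a subunit of complex III, at 416 and 482 CPM against 154 to 181 (change -1.46, and -0.88 on that scale). All 20 actin cytoskeleton genes were lower (median -1.26), 6 of 7 on the short-intron scale, and Actg1, gamma actin, went from 3762 and 4159 to 893 to 1141 CPM. Of 18 immediate early genes, 17 were lower, with 12 of 14 on the short-intron scale. Among them Junb, part of AP-1, went from 2084 and 2012 to 297 to 432 CPM, and Dusp1, a phosphatase of MAP kinases, from 1473 and 1594 to 146 to 219. Ribosomal protein genes depended on the scale: 36 of 62 short-intron members were lower and 4 higher over all genes, near the background of 50.6% and 10.1% for such genes, and 1 was lower and 25 were higher on the short-intron scale. Of 18 cell cycle genes 5 were lower and none higher (median -0.26), near the background of 30.3% for falls.

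Rises among short-intron genes were fewer, and some of the largest were also large in crush. Rnasek, a ribonuclease (chr11:70238124-70239842), had 0 counts in both 1 week samples and 185, 169, 170 and 216 CPM at 15 weeks, at least 504-fold higher with the floor at 3 counts over the group. It was also at 0 in both 1 week crush samples, and the part of the gene list or software in this was not tested. Tomm6, a subunit of the mitochondrial import pore, was at 12.1 and 10.7 CPM and then at 148 to 228 (change 4.01, and 4.48 in crush). Rpl13a, a ribosomal protein, was at 90.2 and 111 CPM and then at 998 to 1135 (change 3.40, and 2.88 in crush). For both the difference from crush did not pass (adjusted p of 0.447 and 0.107). Atp6v0c, a proton pump subunit, changed by 4.41, and by more in crush (6.34, difference -1.93, adjusted p = 0.0234). Rpl10, another ribosomal protein, changed by 2.56 and by less in crush (0.77, adjusted p = 0.00125). For these rises too, the part of the gene list or software was not tested.

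Macrophage genes were among the rises too. Retnla, a secreted resistin-like protein, was at 12.5 and 32.7 CPM at 1 week and at 2188, 1639, 796 and 458 CPM at 15 weeks, above 1 week in each sample and higher in the females than in the males (change 5.74, SE 0.758, adjusted p = 0.000148). C1qa and C1qc, chains of the complement starter C1q, went from 889 and 720 to 2563 to 3530 CPM and from 612 and 540 to 1537 to 2336 CPM. Apoe, the lipid carrier, was at 7519 and 4904 CPM and then at 22184, 14156, 25365 and 26610 (change 1.83, SE 0.28). Resident nerve macrophage genes rose in 16 of 18 cases with none lower (median 1.74). Mrc1, the mannose receptor, was at 284 and 194 CPM and then at 1281, 1320, 1342 and 1197 CPM (change 2.43, SE 0.182, adjusted p = 4.81e-06). Cd163, the haemoglobin scavenger receptor, was at 5.31 and 1.73 CPM and then at 135, 136, 76.8 and 67.4 CPM (change 5.08, SE 0.515). Lyve1, a hyaluronan receptor, was at 0 at 1 week and at 17.1 to 30.4 CPM at 15 weeks, at least 64.3-fold higher. Cd209f, a lectin with 1061 intronic bases, was at 0 and 0.248 CPM and then at 18.1 to 33.9. Mrc1, Cd163 and Lyve1 have long introns and could not be tested on the short-intron scale.

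Microglia-like genes were higher in 9 of 13 cases and lower in 2 (median 1.88). The background for rises was 32.0% over all genes and 57.6% in genes with over 30000 intronic bases, such as P2ry12 (44054). Only 2 members had short introns, and both were higher on the short-intron scale. P2ry12, a purine receptor, was at 10.6 and 6.69 CPM at 1 week and 131 to 154 at 15 weeks (change 4.10, SE 0.202), and Gpr34, a lipid receptor, at 15.4 and 9.42 against 183 to 268 (change 4.26, SE 0.249). MHC class II genes, which present peptides to CD4 T cells, were higher in 7 of 10 cases and lower in 1 (median 0.87). H2-Aa, with 1282 intronic bases, was at 1993 and 2651 CPM and then at 4562 to 5798 (change 1.11, and 1.70 on the short-intron scale).

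**Figure D3:**
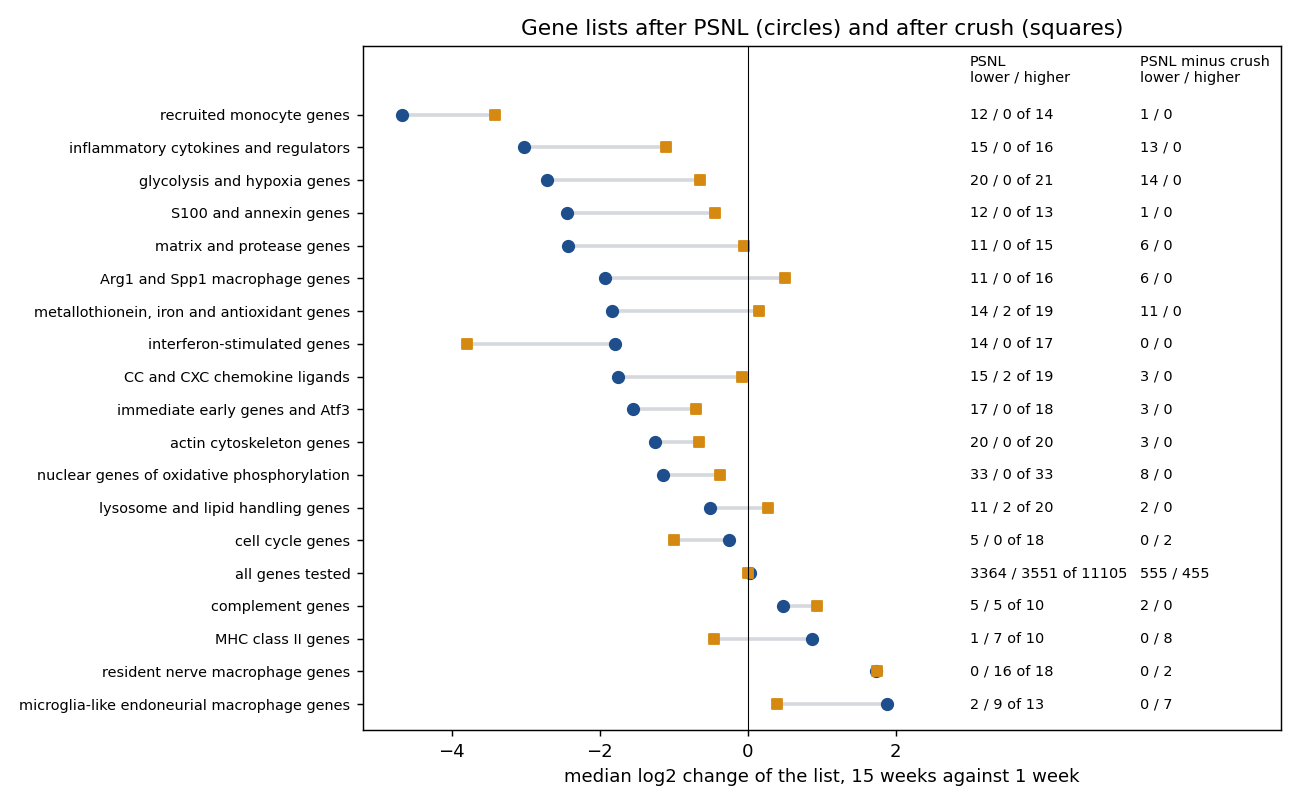
Median log2 change of each gene list between 15 weeks and 1 week after PSNL (circles) and crush (squares), with the number of members lower and higher of those tested. The far right column counts members whose PSNL change was lower or higher than the crush change: inflammatory genes (13 lower) and glycolysis and hypoxia genes (14 lower) lead the falls.

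The change after PSNL was next compared with the change after crush in 1 fit of 11 samples and 11579 genes. A shift of the same size in both injuries cancels in it. PSNL and crush were separate libraries at each time, so differences between those libraries do not cancel. The slope with intronic length did not cancel fully: 108 of 1599 short-intron genes were lower and 28 higher. Of 4303 genes with over 30000 intronic bases, 162 were lower and 254 higher. The PSNL change was lower for 557 genes (4.81%) and higher for 460 (3.97%), and 3002 had an unadjusted p under 0.05. Without PSNL 1 week M the counts were 140 and 80, and without crush 1 week M they were 142 and 107. Without the marked cells the counts were 379 and 345, of which 360 and 304 were among the same genes. Of the short-intron genes, 81 falls and 20 rises passed on the all-gene scale, on the short-intron scale, there without marked cells, and in this comparison. The 81 were 758, 354 and 299 at the earlier steps.

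Ier3 had the smallest adjusted p: crush was at 83.4 and 70.1 CPM at 1 week and 40.2 to 44.9 at 15 weeks, and the difference between the changes was -3.92 (SE 0.276, adjusted p = 0.000228). Cxcl1 went the other way in crush, from 0.999 and 1.86 CPM to 20.6, 11.3 and 22.9 CPM, so that the difference was -10.85 (SE 1.02, adjusted p = 0.000915). Cd14 in crush was at 112 and 99.9 CPM and then 124 to 196 (difference -3.40, SE 0.275, adjusted p = 0.000474). Bnip3 was at 13.5 and 13.7 CPM in crush at 1 week and 12.9 to 16.5 at 15 weeks (difference -2.85, SE 0.253), and Arg1 at 2.5 and 8.07 CPM and then at most 1.46 (difference -7.51, SE 1.22). At 15 weeks the levels of Ier3, Cd14, Bnip3 and Arg1 in PSNL and crush were in the same range, and the injuries stood apart at 1 week. Tpi1, Slc7a11, Hilpda and Spp1 also fell by more after PSNL, with differences of -2.37, -4.55, -4.82 and -3.56 and adjusted p of 0.00218, 0.00218, 0.00684 and 0.0421. Pf4 rose in crush, from 162 and 82.9 CPM to 397 to 905 (difference -3.33, SE 0.498, adjusted p = 0.00463).

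By lists, 13 of 16 inflammatory genes, 14 of 21 glycolysis and hypoxia genes and 11 of 19 antioxidant and iron genes were lower in this comparison and none higher. Without the marked cells these were 4, 13 and 9. With a single sample left out they were at least 6, 6 and 6. Without the marked cells, Il1b (difference -1.99, adjusted p = 0.127), Nfkbia (-1.70, 0.0681) and Cxcl2 (-4.15, 0.11) lost their call while the differences stayed negative, and Ier3, Cd14, Cxcl1, Hilpda and Bnip3 kept theirs. Osm, Il1rn, Dusp1, Fth1, Prdx5 and Lgals3 lost their call in the same way (adjusted p of 0.0679, 0.0709, 0.14, 0.0556, 0.0552 and 0.0501). None of the 17 listed interferon-stimulated genes, which do not include Ifitm1, and 1 of 14 recruited monocyte genes differed: Ifitm3 changed by -2.53 after PSNL and by -2.34 after crush, and Ly6c2 by -5.92 and -5.72. Cxcl3 changed by -8.00 after crush and the difference of -2.40 did not pass (adjusted p = 0.89). Its SE was 7.12, with at most 1.57 CPM in PSNL at 15 weeks, so an equal fall in both injuries cannot be read from it.

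Higher in this comparison were 8 of 10 MHC class II genes and 7 of 13 microglia-like genes, and the same numbers without the marked cells. With a single sample left out they were at least 5 and 1. H2-Aa was at 5305 and 6529 CPM in crush at 1 week and 4392 to 5589 at 15 weeks (difference 1.31, SE 0.242, adjusted p = 0.0111). P2ry12 (difference 2.10), Gpr34 (2.50) and Mgl2, a lectin of dermal and nerve macrophages, (3.77) passed as well. Retnla was already at 3649 and 875 CPM in crush at 1 week and at 2337, 1434 and 208 at 15 weeks (difference 6.53, SE 1.42, adjusted p = 0.0197). Mrc1 did not differ beyond the spread, with 311 and 179 CPM in crush at 1 week and 591 to 1375 at 15 weeks (adjusted p = 0.59). Il2ra, the interleukin 2 receptor chain of lymphocytes, fell in both injuries but by more in crush (difference 3.63, adjusted p = 0.038, and 3.04 and 0.0778 without the marked cells).

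**Figure D4:**
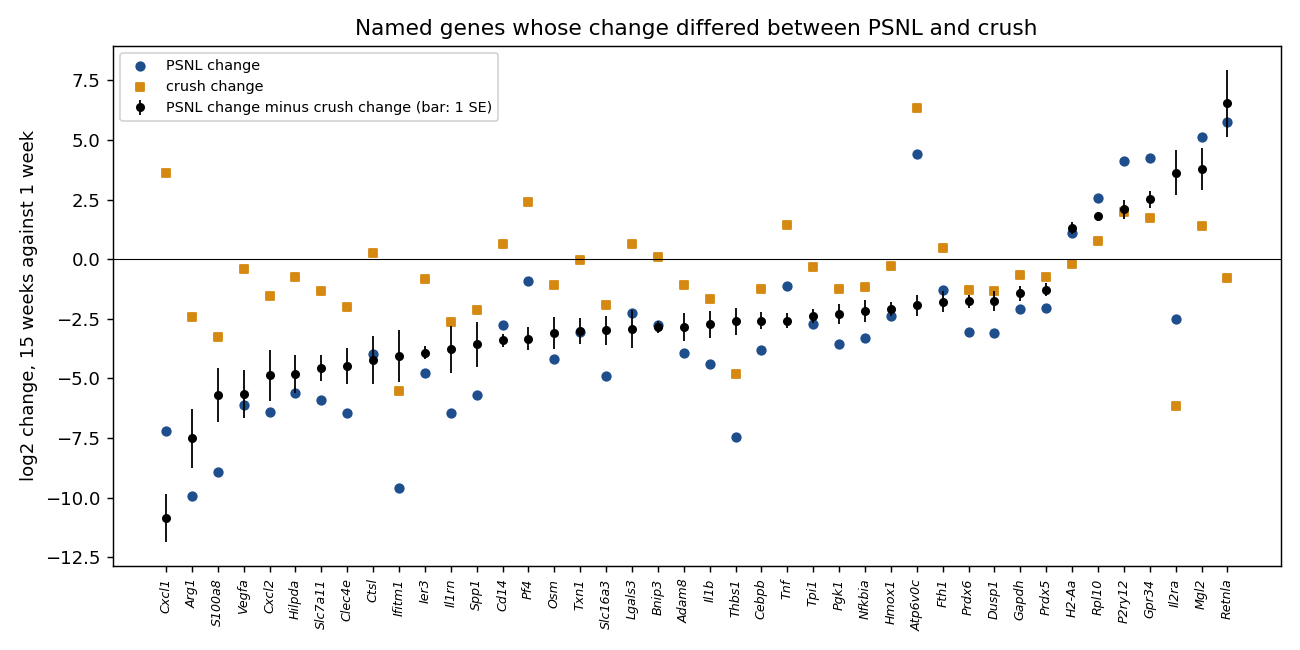
Log2 change between 15 weeks and 1 week after PSNL (blue circles) and after crush (orange squares), and PSNL minus crush with 1 SE (black), for the named genes whose difference passed an adjusted p of 0.05. Cxcl1 lies at the far left with a difference of -10.85 and Retnla at the far right with 6.53.

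The 2 sham samples at 1 week (63 cells and 246800 UMIs in the female, 105 cells and 605312 UMIs in the male, each from a different library) give a background level without a test. Both come from 1 week libraries. A difference from 15 weeks therefore cannot be told apart from the sort, gene list or Cell Ranger version. Gm42418 took 18.5% and 9.83% of the sham UMIs, against 1.33 to 2.36% in PSNL at 15 weeks. In plain CPM, Spp1 was at 68.9 and 77.6 in sham, 6235 and 7293 in PSNL at 1 week and 50.6 to 335 in PSNL at 15 weeks. Arg1 was at 16.2 and 0 plain CPM in sham, Cxcl1 at 4.05 and 1.65, Bnip3 at 8.1 and 13.2, and Cd14 at 118 and 132. Spp1, Arg1 and Cxcl1 in sham lay near the late PSNL samples, and levels of a few plain CPM rest on few UMIs at this depth. Bnip3 and Cd14 in sham were below every late PSNL sample, which stood at 15.6 to 21.6 and 145 to 212 plain CPM. Lying near the late samples did not hold for the named falls as a whole. Of 58, 24 were above every 15 week PSNL sample in both sham samples and 5 were below every one in both. For the other 29 the 2 sham samples were neither both above nor both below, which includes genes where they split. S100a4 was at 1122 and 1997 plain CPM in sham against 331 to 428, Cebpb at 304 and 658 against 101 to 175, and Adam8 at 93.2 and 117 against 20.7 to 28.8. Mrc1 was at 1252 and 742 plain CPM in sham, against 1266 to 1493 in PSNL at 15 weeks, and Retnla at 4996 and 1396 against 485 to 2448. Cd163 was higher in sham, at 389 and 289 plain CPM, than in PSNL at 15 weeks, at 71.3 to 151, and Lyve1 at 130 and 76 was above the 19 to 32.2 there. Of 19 named rises, only these 2 were above every 15 week PSNL sample in both sham samples. Another 14, such as C1qa (1686 and 1231 plain CPM against 2856 to 3733), were below every one in both, and 3 were neither. Apoe was lower in sham, at 6564 and 3646 plain CPM against 15775 to 28219. S100a8 was at 162 and 1099 plain CPM in sham, where 1.59% and 14.3% of cells carried at least 3 neutrophil markers.

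Shares of cells were read after each cell was thinned to 2000 UMIs, leaving out shallower cells. At 1 week 394 of 532 and 724 of 874 cells were deep enough, and at 15 weeks 277, 465, 505 and 352. Intervals are Wilson 95% and cover counting error only. Mrc1 was found in 23.6% (19.7 to 28) and 17.5% (14.9 to 20.5) of cells at 1 week and in 81.2, 79.4, 75.2 and 74.7% at 15 weeks. Cells with 3 or more neutrophil markers carried it in 17.1% of cases in both 1 week samples (intervals 11.5 to 24.5 and 12.5 to 22.9). Cells with 0 of these markers carried it in 23.8% of cases in F and 10.9% in M. The marked cells were thus not free of Mrc1 and not always below the others. How much of the 1 week shares is background was not tested. Cd163 was in 0 of 394 cells of F, which allows a share of cells with a UMI of up to 0.761% at this depth and sets no limit on cells that express it, in 0.138% of M, and in 8.81 to 18.1% at 15 weeks. Spp1 was found in 50.8% and 57.7% of cells at 1 week and 6.45 to 17.6% at 15 weeks, but also in 53.5% and 70.4% of the cells with neutrophil markers at 1 week. Ifitm1 went from 29.7% and 26.2% to 0.43% or less and Cxcl3 from 14.7% and 22% to 0.198% or less. S100a8 was in 25.4% and 20.7% of cells at 1 week, and as a marker itself it helped to set which cells count as marked. Before thinning, Mrc1 was found in 28.8% and 27.8% of cells at 1 week and 89.3 to 92% at 15 weeks, Cd163 in 0.94% and 0.572% against 17.5 to 30.2%, and Spp1 in 52.1% and 60.1% against 10.1 to 33.4%.

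**Figure D5:**
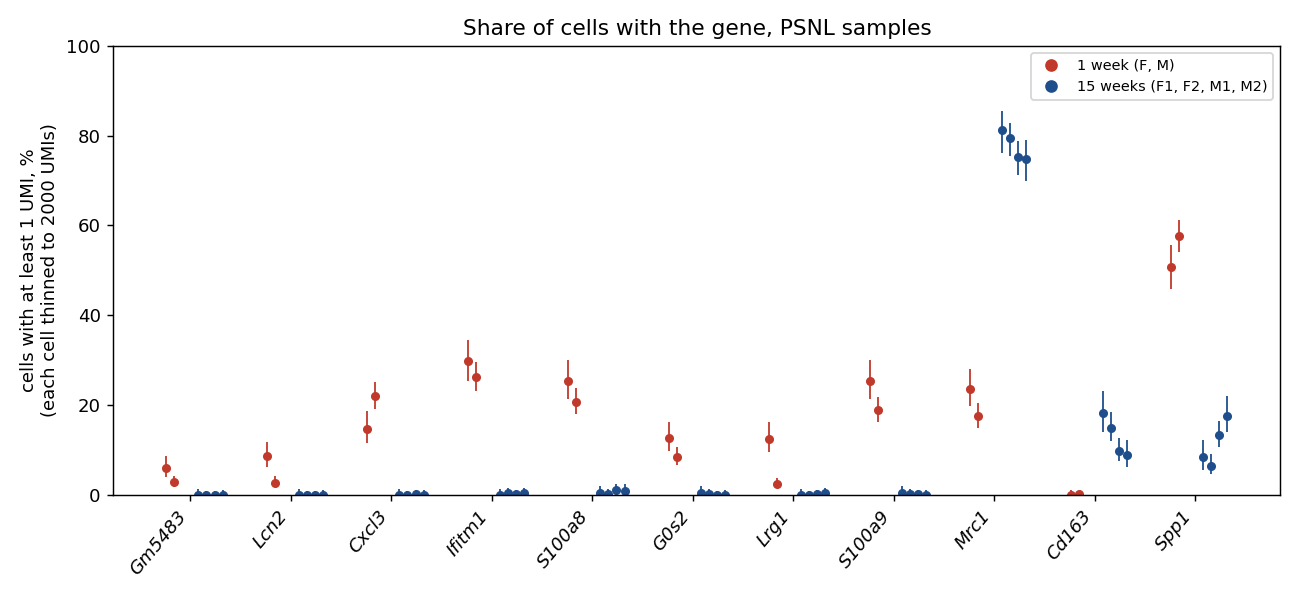
Share of cells with at least 1 UMI of a gene, in percent, after thinning each cell to 2000 UMIs, with Wilson 95% intervals, for the 1 week (red) and 15 week (blue) PSNL samples. Mrc1 moves from 23.6% and 17.5% to at least 74.7%, and Spp1 falls to at most 17.6%.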

How the data were processed

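Single-cell RNA libraries of nerve myeloid cells with hashtag antibodies were analysed. The deposited values are raw UMI counts per gene and cell, made by the authors with Cell Ranger (6.0.0 in the submitters' processing notes, which also name Seurat 5.1.0 and GRCm38). Headers of the matrices give version 6.0.0 for the early libraries and 7.0.0 for the late ones. Counting of intronic reads is not given in the sources used here. The tables list 31053 genes for the early libraries and 32285 for the late ones, joined by Ensembl ID to 30406. Intronic length came from GENCODE vM21.

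Cells with several tags were removed and no doublet caller was run. Counts were summed per hashtag sample and tested with edgeR 4.0.16 and limma 3.58.1 (TMM, quasi-likelihood) in R 4.3.3, with Python 3.11.15. Alternatives used DESeq2 1.42.0, Seurat 5.3.0 (HTODemux), other filters and limits, sex as a term and each sample left out. The scripts were tested on simulated data. Replicates were compared by chi-square of their counts and no 2 were duplicates.

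The members and gene lists were chosen with earlier results of these data known. Named genes were the 15 largest falls and 10 largest rises with short introns, the 10 largest falls of any length and the 10 smallest p of PSNL minus crush (at least 50 CPM, no overlap), up to 4 per list and those the study names. Some others, such as Hilpda, Gapdh and Isg15, were named after their values were seen. A result for 1 gene is not reported here.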

Additional observations from a re-analysis of the deposited data

Results flagged for a closer look

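In the 4 PSNL samples at 15 weeks, 4 of 79 named genes had a sample far from the others, measured as the gap to the nearest sample over the whole range. M2 stood highest for Hilpda (0.932), Cxcl3 (0.861) and Tpi1 (0.834), and F1 stood highest for Thbs1 (0.889). Chance gives such a gap in about 1 in 20 groups, which is near the share found here. The level of each of the 4 genes stayed far under its 1 week samples.

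The log2 change after PSNL differed from that after crush, by the interaction term of edgeR's quasi-likelihood test, for the genes that follow. The largest negative differences were Cxcl1 (-10.85), Arg1 (-7.51), S100a8 (-5.69), Vegfa (-5.66), Cxcl2 (-4.87), Hilpda (-4.82), Slc7a11 (-4.55), Clec4e (-4.48), Ctsl (-4.21), Ifitm1 (-4.07), Ier3 (-3.92) and Il1rn (-3.79). Smaller ones were Spp1 (-3.56), Cd14 (-3.40), Pf4 (-3.33), Osm (-3.11), Txn1 (-2.99), Slc16a3 (-2.98), Lgals3 (-2.92), Adam8 (-2.85), Bnip3 (-2.85), Il1b (-2.73), Thbs1 (-2.61) and Cebpb (-2.58), and then Tnf (-2.57), Tpi1 (-2.37), Pgk1 (-2.29), Nfkbia (-2.17), Hmox1 (-2.08), Atp6v0c (-1.93), Fth1 (-1.79), Prdx6 (-1.76), Dusp1 (-1.76), Gapdh (-1.43) and Prdx5 (-1.28). Positive differences were Retnla (6.53), Mgl2 (3.77), Il2ra (3.63), Gpr34 (2.50), P2ry12 (2.10), Rpl10 (1.79) and H2-Aa (1.31). Without the cells with 3 or more neutrophil markers, Il1b, Nfkbia, Cxcl2, Osm, Il1rn, Dusp1, Fth1, Prdx5, Lgals3 and Il2ra no longer passed. The hashtag antibody Ms.Hashtag_4 had 110 UMIs in the 15 week crush library, where no label names a sample for it.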

How the results depend on the processing

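Of 953 values of the PSNL change (79 named genes, other settings than leaving out a sample), 940 kept direction and side of the threshold, 9 lost their call, 2 gained one and 2 turned. Csf3r changed by 1.95 without the cells with 3 or more neutrophil markers and Tnf by 0.16 without them on the short-intron scale. With a sample left out, 468 of 474 were unchanged, 5 lost and 1 gained a call. PSNL minus crush was less stable: 743 of 869 were unchanged, 105 lost and 21 gained a call, and 436 of 479 were unchanged under other settings, with 20 lost and 23 gained. On the short-intron scale 354 genes were lower and 346 higher of 1500, and 321 and 317 of 1477 without the marked cells, an alternative chosen after seeing the data. A limit of 1000 intronic bases gave 371 lower and 74 higher of 741, a limit of 10000 gave 1720 and 431 of 3620, and the lowest 25% (up to 6957 bases) gave 1372 and 299 of 2777, since the number of genes tested differs. For PSNL minus crush the short-intron scale gave 67 lower and 67 higher of 1574, and 62 and 38 without the marked cells. With a sample left out, lower genes ranged from 2489 to 3389, higher from 2762 to 3681, lower short-intron genes from 569 to 780 and higher ones from 112 to 157. PSNL minus crush ranged from 140 to 792 lower and 80 to 568 higher. It had 318, 328 and 291 lower without PSNL 15 weeks F1, F2 and M1, 305 without PSNL 1 week F and 318 without crush 1 week F, against 557. The cause was not tested. DESeq2 called 2843 lower and 3097 higher. No paired analysis was possible because the samples F and M at 1 week and F1, F2, M1 and M2 at 15 weeks share no replicate numbers. Time, age of the mice, library, sort, gene list and software version cannot be told apart, and with 2 samples at 1 week the spread there rests on a single pair.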
